A study of Mus musculus with 16 samples.

Results

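The chemokine system of mouse inguinal white adipose tissue, the subcutaneous fat depot of the groin, is described here through the genes whose symbols begin with Ccl, Cxcl, Ccr, Cxcr, Cx3cl, Cx3cr, Xcl, Xcr or Ackr followed by a digit. The rule found 55 genes among the 17919 with a symbol in the authors' tables, and 46 of them had enough counts to be among the 16549 genes tested. The tissue came from male mice aged 6 to 7 months that lacked Kmo in the whole body (KO) or were wild-type (WT) littermates, and RNA with an integrity number above 7 was sequenced after poly-A selection. Animals were fed a high-fat diet (HFD) or chow, which gave 4 groups of 4 animals: KO HFD, WT HFD, KO chow and WT chow. Kmo encodes kynurenine 3-monooxygenase, an enzyme of tryptophan breakdown, and a knockout of the whole body removes it from every cell type of the depot and of the animal.

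Each of the 16 libraries held 13824404 to 16909361 counted read pairs, so 1 CPM (counts scaled to library size) stood for 14.1 to 16.5 counts. Chemokine system genes together took 0.0497% to 0.108% of a library's counts. Adipoq, the adipocyte hormone gene that defines this tissue, stood at 1610 to 3278 CPM, and Kmo was at 0.0697 to 0.543 CPM in the 8 KO libraries and 2.66 to 19 CPM in the 8 WT libraries. Cd79a, a B cell receptor component, ran from 0.189 to 85.7 CPM across libraries, and this depot can hold a lymph node. In 6 libraries the mean log2 CPM of B and T cell genes was over 4, here called a lymph node signal. They were KO HFD replicate 1, WT HFD replicate 2, KO chow replicates 1 and 3, and WT chow replicates 2 and 4. WT chow replicate 1, under that limit, held 18.1 CPM of Cd79a, and the other 9 libraries under it held at most 4.75 CPM. In whole tissue, fewer cells of a type and less RNA per cell cannot be told apart.

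Chemokines are small secreted proteins that attract leukocytes along a gradient by binding G protein-coupled receptors on the moving cell. Some are made on demand in inflamed tissue, such as the monocyte attractant Ccl2, and others are made steadily to place cells, such as Ccl19 and Ccl21a in lymph nodes or Cxcl12 in stroma. Atypical receptors (Ackr genes) bind chemokines without G protein signalling and remove or transport them. In obese fat, the ligand Ccl2 and its receptor Ccr2 are best known for bringing monocytes that become macrophages.

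The stretches just before the RefSeq transcription start are shown for Cxcl9 and Cxcl10, neighbouring interferon-inducible genes of which the first changed with diet and the second was not called, and for Ccl19, the ligand that rose most steeply with lymph node RNA. Capitals mark matches to the interferon-stimulated response element core (GAAA, any 2 bases, GAAA) and to the kappa B pattern (GGG, any 5 bases, CC) on either strand, with overlapping matches joined. Sequences are from RefSeq on GRCm38.p6, minus strand, written 5′ to 3′ and ending at the base before the start. They cover chr5:92328080-92328329 for Cxcl9, chr5:92348890-92349139 for Cxcl10 and chr4:42756366-42756615 for Ccl19. The Cxcl9 and Cxcl10 windows lie outside the gene spans used for counting. That span runs further upstream for Ccl19, to 42756577, and holds 212 of its 250 printed bases, the response element core among them.
Cxcl9: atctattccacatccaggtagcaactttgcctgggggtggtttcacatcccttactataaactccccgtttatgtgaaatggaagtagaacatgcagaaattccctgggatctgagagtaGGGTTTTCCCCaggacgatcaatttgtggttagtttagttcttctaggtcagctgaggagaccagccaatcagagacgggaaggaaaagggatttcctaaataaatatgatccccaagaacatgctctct
Cxcl10: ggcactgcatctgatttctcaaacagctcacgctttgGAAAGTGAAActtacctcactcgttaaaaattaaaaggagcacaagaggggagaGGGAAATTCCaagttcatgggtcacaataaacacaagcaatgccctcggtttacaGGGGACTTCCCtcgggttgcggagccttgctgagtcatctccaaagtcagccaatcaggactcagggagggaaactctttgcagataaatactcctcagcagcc
Ccl19: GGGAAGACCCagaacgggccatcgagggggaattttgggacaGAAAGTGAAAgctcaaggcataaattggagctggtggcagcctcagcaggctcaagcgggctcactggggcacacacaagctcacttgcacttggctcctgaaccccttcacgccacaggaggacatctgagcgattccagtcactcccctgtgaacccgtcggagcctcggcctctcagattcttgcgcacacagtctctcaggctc
The response element core occurred before the RefSeq starts of Cxcl10 and Ccl19 and not within the 250 bases before Cxcl9. Among all 32851 RefSeq promoters, 2.98% held that core and 45.8% held the kappa B pattern in the same window. Of the 55 genes, 40 had a promoter in the table (44 start sites), and 3 of those 44 held the core and 24 the kappa B pattern. A match is a description of letters, not a site shown to be used.

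Levels between genes were compared as mean CPM per kilobase of exon. The highest were Ccl8 (58.7 CPM per kilobase), a monocyte ligand, then Ccl6 (50.1), a myeloid ligand of rodents, Ccl11 (37.5), the eosinophil attractant eotaxin, Cxcl14 (33.6), a constitutive ligand of epithelia and fat, Ccl9 (21.6) and Cxcl12 (17.4). Cxcl12 had the most counts per library of the 55 genes (142 CPM on average over its 8176 exon bases). Among receptors, the atypical receptor Ackr3 (15.6 CPM per kilobase) stood above Cxcr4 (8.31), Ccr7 (6.27) and Ccr2 (5.13). In CPM, Ccr7 was at 10.7 to 58.4 in the libraries with a lymph node signal and at 0.315 to 2.09 in the others. More chow than HFD libraries have that signal. The order of the group means of Ccr7 and Ccr2 differed between the diets, and the diet change of Ccr7 was not called. Ccr7 averaged 2.95 in KO HFD and 1.72 in WT HFD, below Ccr2 (5.15 and 6.03), and 9.56 in KO chow and 10.8 in WT chow, above Ccr2 (4.88 and 4.47 CPM per kilobase). Of these 6, Ccl8, Ccl6, Ccl11 and Ccl9 lie in arrays on chromosome 11 of GRCm38, which also hold ligands as low as Ccl3 (0.504 CPM per kilobase) and Ccl4 (0.622). Ccl2, Ccl7, Ccl11, Ccl12 and Ccl8 run from 82035571 to 82116799, and Ccl5, Ccl9, Ccl6, Ccl3 and Ccl4 from 83525778 to 83664683. Cxcl9, Cxcl10 and Cxcl11 lie between 92321347 and 92365485 on chromosome 5. All values count reads over every exon of a gene together.

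The 9 remaining members were too low to be tested, with 16 to 118 counts over the 16 libraries. They were the neutrophil ligands Cxcl2 and Cxcl5, the ligands Ccl1, Ccl3, Ccl17, Cxcl17 and Xcl1, the receptor Ccr8, and Ccr1l1, a receptor-like gene. Cxcl5, the lowest, had no count in the 8 HFD libraries, where up to 3 counts a library remain possible, and 16 counts in 4 chow libraries. Ccl3 had 33 counts in HFD and 63 counts in chow libraries. The other members ranged from 102 counts (Ccl4) to 35177 counts (Cxcl12).

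**Figure D1:**
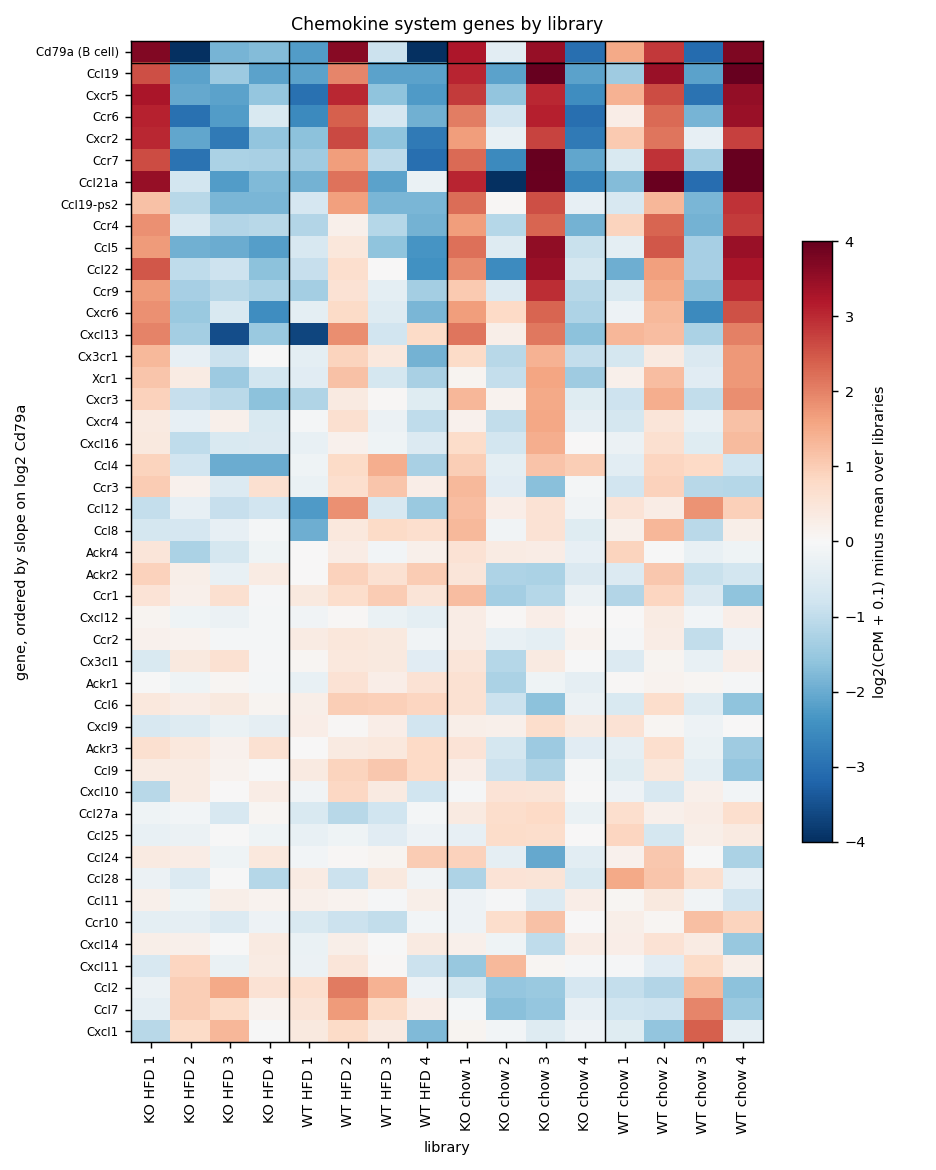
Level of 45 of the 46 tested chemokine system genes and of Cd79a in each library, as log2(CPM + 0.1) minus the gene's mean over the 16 libraries (colour, capped at 4 either way). Genes run from the steepest rise with Cd79a at the top (Ccl19, 1.69 per log2 unit) to the lowest slopes at the bottom, and the upper genes are high in the 6 libraries with B and T cell genes over 4.

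HFD was compared with chow to describe how the diet changed the chemokine system of the depot. Over both genotypes, 8 HFD against 8 chow libraries, 7 of 46 tested members were called by edgeR's quasi-likelihood test (adjusted p under 0.05, Benjamini-Hochberg over all 16549 genes). Ccl2 and Ccl9 rose, and Ccr10, Ccl27a, Ccl25, Cxcl9 and Cxcl12 fell. That share, 15.2%, stood against 33.1% of all genes tested (17.1% higher and 16% lower), and the share of members was below that background in both directions (4.35% higher and 10.9% lower). The median log2 fold change of the 46 members was −0.50 and that of all genes −0.04, with 16 members above 0 and 30 below. Within KO animals 1 member was called (Cxcl9, lower), against 12.5% of all genes (7.28% higher and 5.23% lower), and within WT animals 2 were called (Ccl27a and Ccr10, both lower), against 11.8% of all genes (6.9% higher and 4.92% lower). No overlap between the libraries of the 2 diets was seen in KO for 1 member higher on HFD (Ccl2; 10.2% of all genes) and 3 lower (Cxcl9, Ccr10 and Ccl12; 8.47%), and in WT for 2 lower (7.43%) and 0 higher (10%).

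**Figure D2:**
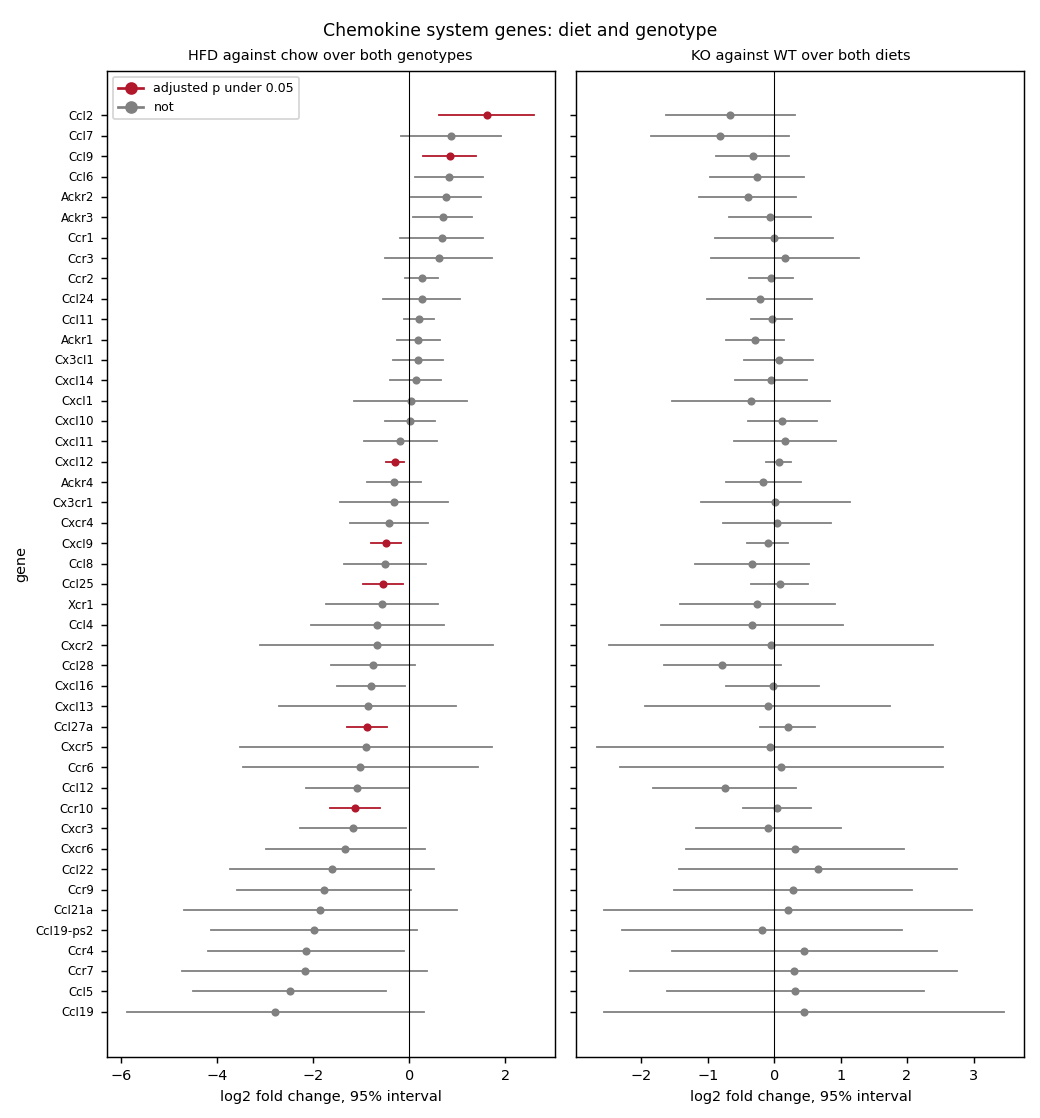
Log2 fold change with its 95% interval for 45 of the 46 tested members, HFD against chow over both genotypes on the left and KO against WT over both diets on the right (edgeR, 8 libraries a side). Red marks the 7 members with an adjusted p under 0.05, all of them in the diet comparison.

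The monocyte ligand Ccl2 (ENSMUSG00000035385) rose on HFD. It was at 7.72, 18.2, 26.1 and 13.7 CPM in KO HFD and at 14.7, 38.8, 23.7 and 7.87 CPM in WT HFD libraries. On chow it was at 5.60, 3.05, 3.20 and 5.69 CPM in KO and at 4.69, 3.97, 22.5 and 2.87 CPM in WT libraries. Only WT chow replicate 3 reached the HFD range, and every other chow library lay below every HFD library. The log2 fold change was 1.61 (edgeR adjusted p = 0.0164, SE 0.46) over both genotypes and 1.91 (edgeR adjusted p = 0.0731, SE 0.66) in KO, where the groups did not overlap. DESeq2 called the difference in KO (1.91, adjusted p = 0.0284). With all libraries the difference in WT was not called. Without WT chow replicate 3, the difference over both genotypes was 2.19, and the difference in WT became 2.47 (edgeR adjusted p = 0.0123). In the 10 libraries without a lymph node signal the call over both genotypes was lost (1.16, edgeR adjusted p = 0.126).

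Its neighbours on chromosome 11 did not all move with it. Ccl7, another ligand of Ccr2, was at 6.30 to 26.9 CPM (median 12.8) on HFD and 2.51 to 31.9 CPM (median 4.64) on chow, a log2 fold change of 0.87 (edgeR adjusted p = 0.184, SE 0.49). Here too the highest chow value was WT chow replicate 3, without which the change was 1.59 (edgeR adjusted p = 0.00245). With all libraries limma-voom called Ccl7 (1.32, adjusted p = 0.0236). Ccl12, a further Ccr2 ligand of mice, had a median of 0.852 CPM on HFD and 2.41 CPM on chow, and its log2 fold change was −1.08 (edgeR adjusted p = 0.113, SE 0.51). The highest HFD value, 5.94 CPM, was WT HFD replicate 2. Without it Ccl12 was called lower over both genotypes (−1.93, edgeR adjusted p = 0.00132) and in WT (−2.50, edgeR adjusted p = 0.0179), as it was over both genotypes by limma-voom (adjusted p = 0.0409). In KO animals Ccl12 did not overlap, at 0.779 to 1.27 CPM on HFD and 1.44 to 3.90 CPM on chow, and it was not called. Ccl8, the most abundant ligand per kilobase, was at 6.48 to 43.6 CPM on HFD and 12 to 63.9 CPM on chow (−0.51, edgeR adjusted p = 0.349, SE 0.40). The receptor Ccr2 was at 30.5 to 46.0 CPM (median 37.7) on HFD and 17.2 to 41.8 CPM (median 30.9) on chow, with a log2 fold change of 0.26 (edgeR adjusted p = 0.223, SE 0.16).

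WT chow replicate 3 stood apart in several members at once. It held 22.5 CPM of Ccl2, 31.9 of Ccl7, 7.45 of the neutrophil ligand Cxcl1 and 5.79 of Ccl12, against at most 4.69, 4.69, 1.02 and 3.19 in the other WT chow libraries. The same library had 43.6 CPM of Fosb and 53.6 of Fos, immediate early genes, and 911 CPM of the skeletal muscle gene Acta1. Fosb was also 24.1, 42.2 and 16.2 CPM in KO HFD replicates 2 to 4 and at most 9.0 CPM in the remaining libraries. The part of these genes in the Ccl2 result was not tested. Without WT chow replicate 3 the rise of Ccl2 was larger, as given above.

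**Figure D3:**
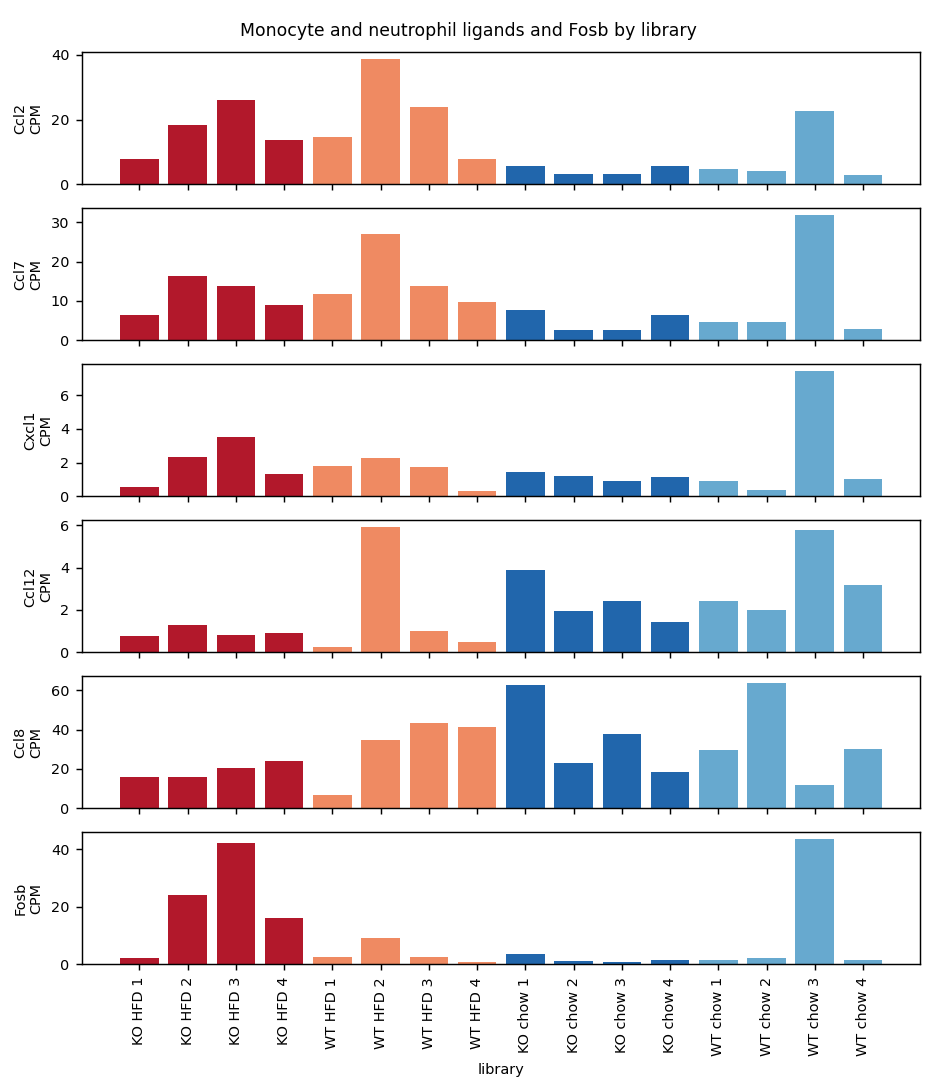
CPM of the monocyte ligands Ccl2, Ccl7, Ccl12 and Ccl8, the neutrophil ligand Cxcl1 and the immediate early gene Fosb in each library (bars, axes from 0). WT chow replicate 3 holds 22.5 CPM of Ccl2 and 31.9 CPM of Ccl7, and no other chow library exceeds 5.69 CPM of Ccl2.

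Among the ligands made by macrophages and T cells, Ccl9 (ENSMUSG00000019122), which acts through Ccr1 in mice, rose on HFD. KO HFD libraries held 73.5, 74.5, 64.5 and 57.9 CPM and WT HFD libraries 75.5, 110.1, 125 and 102 CPM. KO chow libraries held 70.6, 32.2, 25.4 and 55.4 CPM and WT chow libraries 42.2, 81.1, 45.2 and 20.1 CPM. The high chow values, in KO chow replicate 1 and WT chow replicate 2, lay within the HFD range. The log2 fold change was 0.84 (edgeR adjusted p = 0.0224, SE 0.26). Ccl6, its neighbour and close relative, was at 83.8 to 154 CPM (median 104) on HFD and 25.1 to 129 CPM (median 52.7) on chow, with a change of 0.84 (edgeR adjusted p = 0.0657, SE 0.33). DESeq2 (0.83, adjusted p = 0.0221) and limma-voom (0.91, adjusted p = 0.0238) called Ccl6.

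The 2 chow libraries with most Ccl6 and Ccl9 were also highest among chow libraries in the macrophage gene Adgre1, at 53.3 CPM in KO chow replicate 1 and 72.8 CPM in WT chow replicate 2, against 14.6 to 38.8 CPM in the other 6. On HFD Adgre1 was at 43.0 to 93.7 CPM. Of 8 macrophage markers, 2 rose on HFD (Adgre1 by 0.88 and Cd68 by 0.54, edgeR adjusted p = 0.0454 and 0.0445) and none fell, against 17.1% of all genes higher. The summed macrophage level was 927 to 1746 CPM on HFD and 758 to 2054 CPM on chow. Of 6 lipid-associated macrophage markers, Cd9 alone was called (0.46, edgeR adjusted p = 0.0242), and the sum was 94.1 to 273 CPM on HFD and 79.8 to 264 CPM on chow. Their part in the Ccl9 result was not tested.

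Without WT chow replicate 2, Ccl6 was called over both genotypes (1.12, edgeR adjusted p = 0.0105), as were Ccr1 (1.08), Ackr2 (1.13) and Ackr3 (0.91). The same 4 were called without KO chow replicate 1 (1.09, 1.11, 1.05 and 0.93). With all libraries, Ccr1, a receptor for Ccl9, Ccl3 and Ccl5, had a median of 4.27 CPM on HFD and 1.60 CPM on chow (0.67, edgeR adjusted p = 0.213, SE 0.40). Ccl4 was at 0 to 0.998 CPM on HFD and 0.128 to 0.786 CPM on chow (−0.67, edgeR adjusted p = 0.447).

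The eosinophil ligands did not pass the test. Ccl11, abundant in every library, was at 35.6 to 47.3 CPM on HFD and 23.4 to 52.8 CPM on chow, with a log2 fold change of 0.20 (95% interval −0.11 to 0.51). Ccl24, another eotaxin, had a median of 9.36 CPM on HFD and 7.14 CPM on chow (0.25, SE 0.37). Their receptor Ccr3 had 73 counts in the HFD and 50 counts in the chow libraries.

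Cxcl9 (ENSMUSG00000029417), an interferon-gamma-inducible ligand that attracts T cells through Cxcr3, fell on HFD. KO HFD libraries were at 20.3, 22.6, 26.5 and 24.9 CPM and WT HFD libraries at 38.3, 33.1, 38.7 and 19 CPM. KO chow libraries were at 37.8, 37.1, 52.7 and 41.4 CPM and WT chow libraries at 48.2, 33.7, 27.8 and 32.1 CPM. The groups were apart in KO and overlapped in WT. The log2 fold change was −0.84 in KO (edgeR adjusted p = 0.0199, SE 0.21) and −0.49 over both genotypes (edgeR adjusted p = 0.0202, SE 0.15). In KO the call was lost without KO HFD replicate 2 (−0.82, edgeR adjusted p = 0.0631) or KO chow replicate 3 (−0.72, edgeR adjusted p = 0.0704), and in the 10 libraries without a lymph node signal (−0.67, edgeR adjusted p = 0.211). Over both genotypes it was lost in those 10 libraries (−0.47, edgeR adjusted p = 0.148), in the libraries merged over lanes (−0.39, edgeR adjusted p = 0.0729) and with the mean of B and T cell genes as a covariate. The difference between the genotypes' diet effects was −0.71 (SE 0.30) and was not called. Cxcl10, whose promoter carries the response element core shown above, was at 2.69 to 10.5 CPM on HFD and 3.72 to 8.61 CPM on chow (0.02, 95% interval −0.50 to 0.54). Cxcl11, another ligand of Cxcr3, was at 0.945 to 3.34 CPM on HFD and 0.566 to 4.54 CPM on chow (−0.18, SE 0.36). Cxcl10 and Cxcl11 overlap the span of Art3 on the other strand, with 133 shared exon bases for Cxcl10 and 0 for Cxcl11. Art3 was at 262 ± 29.5 CPM on HFD and 236 ± 50.2 CPM on chow (SD, n = 8 each). Cxcl11 shares 1582 of its 3794 exon bases with Gm2673 on the other strand, which had 9 counts, so the level of Cxcl11 is uncertain. Cxcr3 itself had a median of 1.58 CPM on HFD and 4.76 CPM on chow (−1.17, edgeR adjusted p = 0.0947, SE 0.52). DESeq2 called Cxcr3 lower (−1.18, adjusted p = 0.0456).

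Epithelial and homing members supplied 3 of the 5 decreases. Ccr10 (ENSMUSG00000044052), the receptor of Ccl27a and Ccl28 on skin-homing T cells and plasma cells, had the smallest adjusted p. It was at 1.63, 1.67, 1.47 and 1.88 CPM in KO HFD and 1.40, 1.15, 1.06 and 2.02 CPM in WT HFD libraries. KO chow libraries held 1.89, 3.66, 5.02 and 2.19 CPM and WT chow libraries 2.61, 2.30, 5.19 and 4.15 CPM. The groups did not overlap within either genotype, and the fall over both was −1.13 (edgeR adjusted p = 0.00297, SE 0.24). Within WT the call was lost without WT HFD replicate 1, 2 or 3 or WT chow replicate 3 or 4 (edgeR adjusted p = 0.0516 to 0.0802), in the libraries merged over lanes (0.0880) and in the 10 libraries without a lymph node signal (−1.39, edgeR adjusted p = 0.0762). Ccr10 lies on the minus strand of chromosome 11 (101172997 to 101175443) inside the span of Cntnap1 on the plus strand, with no shared exon base. Cntnap1, a gene of myelinated axons, was at 9.02 to 16.9 CPM on HFD and 17.3 to 38.9 CPM on chow, a log2 fold change of −1.24 (edgeR adjusted p = 2.38e-04). Counts ignored strand, so reads of the pair cannot be told apart where their transcripts overlap, and the part of Cntnap1 in the Ccr10 result was not tested.

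Ccl27a (ENSMUSG00000073888), a ligand of Ccr10 known from keratinocytes, fell as well. Its values were 2.83, 2.94, 2.03 and 3.35 CPM in KO HFD, 2.03, 1.40, 1.80 and 3.02 CPM in WT HFD, 4.15, 5.22, 5.56 and 2.63 CPM in KO chow and 5.15, 3.66, 3.93 and 5.11 CPM in WT chow libraries. Only KO chow replicate 4 lay within the HFD range. The fall was −0.88 (edgeR adjusted p = 0.00378, SE 0.20) over both genotypes and −1.11 (edgeR adjusted p = 0.0224, SE 0.28) in WT. Within WT the call was lost without WT HFD replicate 2 or 3 or WT chow replicate 1 or 4 (edgeR adjusted p = 0.0620 to 0.0726), with the replicate number as a block (0.0507), in the merged libraries (0.0741) and in the 10 libraries without a lymph node signal (edgeR adjusted p = 0.145). Near-identical copies make its level uncertain, since 16.5% of the 150-base windows of its transcripts also occur in Ccl27b and predicted genes.

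Ccl25, the thymus and gut ligand of Ccr9, was at 5.45 to 7.43 CPM (median 6.54) on HFD and 4.59 to 13.8 CPM (median 9.28) on chow. The spread was wider on chow, and the lowest value was WT chow replicate 2. Its fall of −0.55 (edgeR adjusted p = 0.0464, SE 0.20) kept its call in 3 of 16 fits that left out a library. Ccl25 shares 204 exon bases with Elavl1 on the other strand, which was at 45.8 ± 3.54 CPM on HFD and 48.1 ± 4.79 CPM on chow (SD, n = 8 each). Ccl28 was below 1.5 CPM in every library (−0.76, edgeR adjusted p = 0.169). Cxcl14, at 48.0 to 74.3 CPM on HFD and 20.2 to 86.8 CPM on chow, had a log2 fold change of 0.13 (95% interval −0.40 to 0.67).

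**Figure D4:**
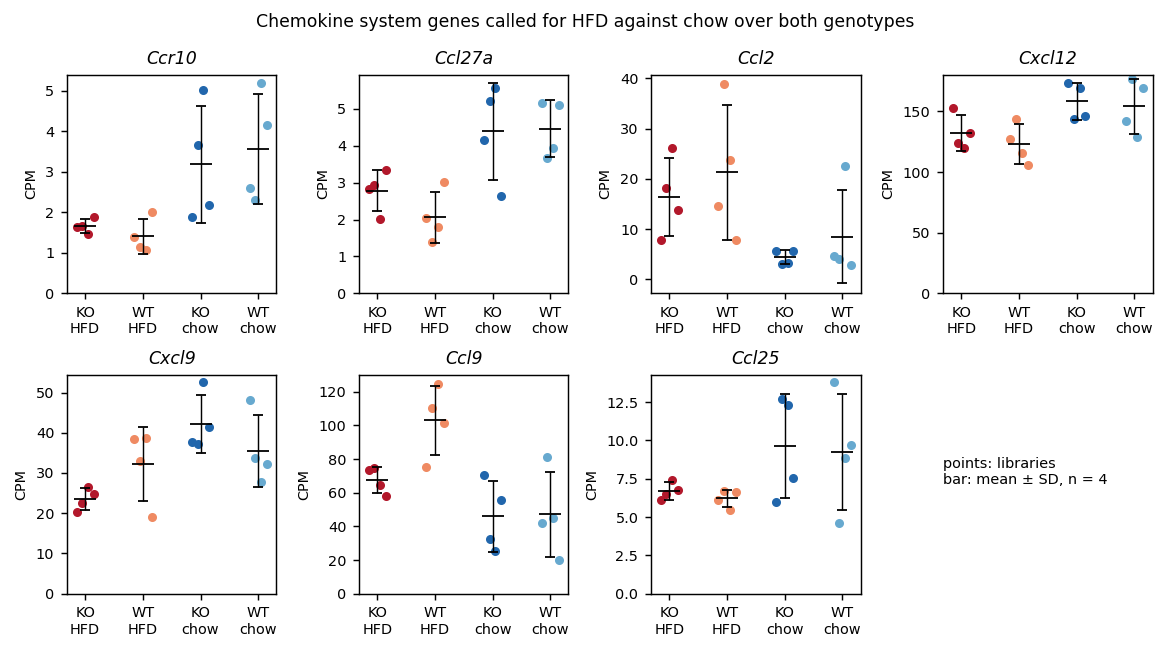
CPM of the 7 members called for HFD against chow over both genotypes, with 1 point a library and the mean ± SD of each group of 4. Ccl2 and Ccl9 are higher on HFD, Ccr10, Ccl27a, Cxcl12, Cxcl9 and Ccl25 lower, and the high WT chow point of Ccl2 is replicate 3 at 22.5 CPM.

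Cxcl12 (ENSMUSG00000061353), the stromal ligand that retains leukocytes and progenitors through Cxcr4, fell by a small amount. It was at 106 to 153 CPM (median 125) on HFD and 129 to 177 CPM (median 158) on chow, a log2 fold change of −0.29 (edgeR adjusted p = 0.0200, SE 0.09). The groups overlapped. KO HFD replicates 1 and 4 and WT HFD replicate 2 lay above the lowest chow library, WT chow replicate 3, and KO chow replicates 2 and 4 and WT chow replicates 1 and 3 lay below the highest HFD library. The highest HFD values, 153 and 143.6 CPM, were those of KO HFD replicate 1 and WT HFD replicate 2, which have a lymph node signal. With Cd79a as a covariate the change was −0.19 (edgeR adjusted p = 0.0241). The call was lost in the 10 libraries without a lymph node signal and in the libraries merged over lanes (edgeR adjusted p = 0.110 in the merged libraries). Cxcr4 was at 6.49 to 20.8 CPM on HFD and 6.58 to 39.0 CPM on chow (−0.43, edgeR adjusted p = 0.400, SE 0.38). Ackr3, the atypical receptor that takes up Cxcl12, lay at 47.7 to 82.1 CPM (median 63.5) on HFD and 17.3 to 75.0 CPM (median 35.9) on chow. Its log2 fold change of 0.69 (edgeR adjusted p = 0.0800, SE 0.29) did not pass. It was called by DESeq2 (0.69, adjusted p = 0.0382) and limma-voom (0.70, adjusted p = 0.0374). Its highest chow values, 69.4 and 75.0 CPM, came from KO chow replicate 1 and WT chow replicate 2, as for Ccl6.

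Of the other atypical receptors, Ackr2, which clears inflammatory CC ligands, was at 4.36 to 11 CPM (median 7.61) on HFD and 2.18 to 11.7 CPM (median 3.41) on chow. Its change of 0.77 (edgeR adjusted p = 0.0964, SE 0.34) was called with Cd79a as a covariate (0.98, edgeR adjusted p = 0.0446). Ackr1, which binds many inflammatory ligands on venules and erythrocytes, was at 5.53 to 10.3 CPM on HFD and 2.78 to 10.5 CPM on chow (0.19, SE 0.21). Ackr4, which takes up Ccl19, Ccl21a and Ccl25, was at 0.667 to 2.48 CPM on HFD and 1.38 to 3.32 CPM on chow (−0.32, SE 0.26). Ackr1 shares exon bases with Cadm3, and Ackr4 with Acad11, so neither level is certain.

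Neutrophil members were low. Cxcl1 was at 0.315 to 3.5 CPM on HFD and 0.372 to 7.45 CPM on chow (0.03, 95% interval −1.15 to 1.20), with WT chow replicate 3 highest. Cxcl2 had 41 counts in the HFD and 30 counts in the chow libraries. Of the neutrophil markers, Ly6g had counts in 1 of 16 libraries only (0.0625 CPM), and the summed level was 5.30 to 15.1 CPM on HFD and 5.76 to 12.7 CPM on chow. The receptor Cxcr2 was at 5.59 CPM in KO HFD replicate 1, 4.34 CPM in WT HFD replicate 2 and 4.66 CPM in WT chow replicate 4, and at 0 in 3 libraries without a lymph node signal.

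The slope of each gene on log2 Cd79a, fitted within the 4 groups over all 16 libraries, asked which members moved with lymph node RNA between animals. It called 19 of 46 members, all higher with more Cd79a (41.3% against 14.5% of all genes, 10.3% higher and 4.22% lower). The 8 B cell and 8 T cell markers were all called higher too, as were 4 of 4 tested genes listed for lymph node stroma. That list includes Cr2 and Fcer2a, which B cells also express, so it is no separate measure of stroma. Cd79a is itself among the 8 B cell markers, so its own call was fixed in advance. B cell markers summed to 3.15 to 521 CPM in HFD and 6.19 to 626 CPM in chow libraries.

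Lymphoid homing members were all among them. Cxcr5, the receptor that brings B cells to follicles, was at 22.4, 0.467, 0.430 and 0.697 CPM in KO HFD and 0.191, 18.6, 0.665 and 0.378 CPM in WT HFD libraries. On chow it was at 16, 0.678, 18.6 and 0.313 CPM in KO and 5.93, 14.1, 0.200 and 26.5 CPM in WT libraries. Its slope was 0.91 (edgeR adjusted p = 1.2e-08, SE 0.05), close to 1 log2 unit per unit of Cd79a. Its ligand Cxcl13 had a lower slope (0.41, edgeR adjusted p = 0.0167, SE 0.10). Cxcl13 was at 11.7 CPM in WT HFD replicate 4, where Cd79a was at 0.189 CPM, and at 0.445 to 3.99 CPM in the other 5 HFD libraries without a lymph node signal.

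Ccr7, which guides T cells and dendritic cells into nodes, was at 20.5, 0.334, 1.29 and 1.26 CPM in KO HFD and 1.14, 10.7, 1.53 and 0.315 CPM in WT HFD libraries. On chow it was at 16.1, 0.475, 58.4 and 0.688 CPM in KO and 2.09, 25.0, 1.20 and 57.4 CPM in WT libraries. Its slope was 0.81 (edgeR adjusted p = 5.47e-05, SE 0.09). Of its ligands, Ccl19 was at 1.60 to 11.8 CPM in the 6 libraries with a lymph node signal and at 0 to 0.0652 CPM in the other 10, with the steepest slope of all members (1.69, edgeR adjusted p = 2.49e-07, SE 0.13). Ccl21a ranged from 0 to 55.2 CPM with a slope of 0.78 (edgeR adjusted p = 0.00576, SE 0.16). Both ligands are uncertain, since 32.4% of the 150-base windows of Ccl19 and 33.7% of those of Ccl21a also occur in near-identical copies. Ccl19-ps2, a pseudogene, had a slope of 0.72 (SE 0.10).

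**Figure D5:**
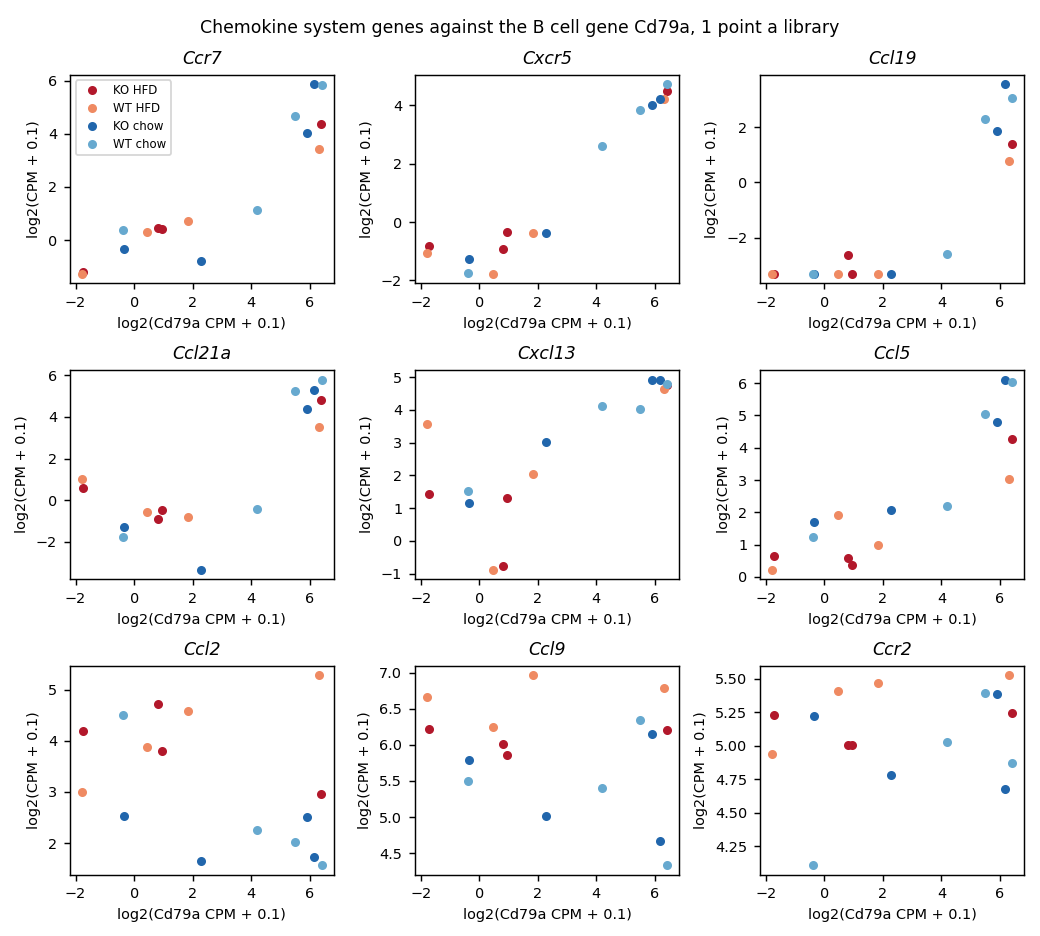
Each panel plots a chemokine system gene against Cd79a, both as log2(CPM + 0.1), with 1 point a library coloured by group. Ccr7, Cxcr5, Ccl19, Ccl21a, Cxcl13 and Ccl5 rise with Cd79a (slopes 0.41 to 1.69), while Ccl2, Ccl9 and Ccr2 show no called slope.

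T cell and natural killer members rose with Cd79a as well. Ccr6, a receptor of B and T helper cells, had a slope of 0.85 (edgeR adjusted p = 8.79e-08, SE 0.06), and Ccr4, a receptor of regulatory and other helper T cells, had 0.72 (SE 0.09). Its ligand Ccl22 had 0.57 (SE 0.10), Ccl5, a ligand made by T and natural killer cells, 0.57 (SE 0.08), Ccr9, the gut-homing receptor, 0.57 (SE 0.08) and Cxcr6, the receptor of resident T cells, 0.49 (SE 0.07). Cx3cr1 (0.30, SE 0.05), Xcr1 of cross-presenting dendritic cells (0.30, SE 0.06), Cxcr3 (0.29, SE 0.05) and the membrane-bound ligand Cxcl16 (0.18, SE 0.04) rose less steeply. Cxcl16 shares 552 of its 3021 exon bases with Zmynd15 on the other strand, so its level is uncertain. Zmynd15 was at 2.87 ± 2.05 CPM on HFD and 8.97 ± 8.74 CPM on chow (SD), and its part in the Cxcl16 results was not tested. Cxcr2 had a slope of 0.82 (edgeR adjusted p = 2.48e-06, SE 0.08), and none of the 3 tested neutrophil markers was called. Cxcr4 (0.18, SE 0.05) and Cxcl12 (0.05, SE 0.01) completed the called members. Fractalkine, the ligand Cx3cl1 of Cx3cr1, was not called for the slope or the diet and stood at 2.76 to 6.57 CPM on HFD and 1.90 to 6.04 CPM on chow. Of the 7 members called for diet, 6 had no called slope, Cxcl12 being the exception.

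Several of these members had large differences between the diets that edgeR did not call with all libraries. Ccl5 was at 19.3, 1.47, 1.41 and 1.19 CPM in KO HFD and 3.69, 8.11, 1.86 and 1.07 CPM in WT HFD libraries. It was at 27.5, 4.07, 69.1 and 3.13 CPM in KO chow and 4.50, 33.2, 2.26 and 65.4 CPM in WT chow libraries. Its log2 fold change was −2.50 (edgeR adjusted p = 0.0559, SE 0.94), and −1.22 (edgeR adjusted p = 0.0866) with Cd79a as a covariate. DESeq2 called it (−2.50, adjusted p = 0.0139), as did edgeR without KO HFD replicate 1 (−3.54, adjusted p = 0.0126). Without that library Ccr7 (−3.47), Ccr4 (−3.13), Ccr9 (−2.63), Cxcr6 (−2.17) and Cxcr3 (−1.62) were also called lower, as were Ccl19, Ccl19-ps2, Cxcl16 and Xcl1. KO HFD replicate 1 has a lymph node signal, so leaving it out made the diets differ more in that signal. The part of the signal in these calls was not tested. Ccl5 was called too without KO chow replicate 2 or 4 or WT chow replicate 3, and Ccr4 without WT chow replicate 3 (edgeR adjusted p = 0.0389 to 0.0491). With all libraries Ccr7 stood at −2.18 (edgeR adjusted p = 0.174) and at −0.73 with the covariate, Ccl22 at −1.60 and −0.31, and Cxcr5 at −0.90 and −0.03. The mean of B and T cell genes was over 4 in 2 of 8 HFD and 4 of 8 chow libraries, and T cell markers summed to 2.83 to 118 CPM on HFD and 6.12 to 328 CPM on chow. With the covariate the median of the 46 members was −0.12, and 8 members were called, 3 higher and 5 lower, against 30.7% of all genes (15.7% higher and 15% lower). Ccl2 (1.57), Ccl9 (0.85), Ccr10 (−1.21) and Ccl27a (−0.89) were about as large as without it, Ccl19 (−1.98, edgeR adjusted p = 0.0132) and Ackr2 were added, and Ccl25 (edgeR adjusted p = 0.0619) was lost.

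The comparison of KO with WT asked whether loss of Kmo changed the chemokine system. No member was called on chow, on HFD, over both diets or in the interaction, by edgeR, DESeq2 or limma-voom. Over all genes, 1 gene (0.00604%), Kmo itself, was called by edgeR in each of the first 3 comparisons and 0 (0%) in the interaction. At an unadjusted p under 0.05, edgeR had 0, 1, 0 and 1 members in these comparisons (1%, 1.14%, 0.997% and 1.13% of all genes), DESeq2 0, 1, 0 and 1 (270, 292, 301 and 300 of 33394 genes), and limma-voom 1, 5, 1 and 2 (78, 912, 261 and 289 of 16549 genes). The median log2 fold change of members was −0.04 on chow and −0.01 on HFD. The median half-width of a member's 95% interval, not adjusted for the number of genes, was 1.22 on chow and 1.26 on HFD. Smaller log2 differences therefore remain possible in many members. The bounds were closer for some abundant members. Over both diets Cxcl9 was at 32.9 ± 11.2 CPM in KO and 33.9 ± 8.54 CPM in WT (SD, n = 8 each), with an interval of −0.41 to 0.21.

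On chow no member was free of overlap between the genotypes (0.26% of all genes were higher and 0.296% lower without overlap). On HFD this held for Ccl9 alone, which was lower in KO (0.562% of all genes were lower and 0.858% higher without overlap). Its 57.9 to 74.5 CPM in KO HFD lay below the 75.5 to 125 CPM of WT HFD libraries, a log2 fold change of −0.61 (SE 0.36) that edgeR did not call. In the authors' deposited table for HFD, Ccl9 had a shrunken log2 fold change of −0.51 with an unadjusted p of 1.98e-04 and an adjusted p of 1.0. Ccl6 averaged 96.7 ± 9.50 CPM in KO HFD and 135 ± 29.8 CPM in WT HFD (SD, n = 4 each; −0.48, SE 0.46), and Cxcl9 23.6 ± 2.68 CPM and 32.3 ± 9.21 CPM in the same groups (−0.45, SE 0.21). In the authors' deposited tables none of the 54 members listed for chow or the 52 listed for HFD had an adjusted p under 0.05, and at an unadjusted p under 0.05 there were 0 on chow and 3 on HFD. The diet and genotype comparisons share libraries, so Ccl9 and Cxcl9 in KO HFD enter both.

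Downstream of the receptors, 34 signal transduction genes were examined. On HFD over both genotypes 6 rose and 1 fell. The Gi subunit gene Gnai1 rose by 0.63 (SE 0.13), the G protein beta subunit gene Gnb1 by 0.26, the arrestin gene Arrb1 by 0.78 (edgeR adjusted p = 2.33e-05, SE 0.08), the receptor kinase gene Grk5 by 0.57, the Rac activator gene Tiam1 by 0.61 and Stat3 by 0.18. Grk3, a kinase that phosphorylates activated receptors, fell by 1.04 on the log2 scale (edgeR adjusted p = 1.74e-04, SE 0.14). Arrb1 was at 143 to 169 CPM on HFD and 73.7 to 107 CPM on chow, and Grk3 at 18 to 31.6 CPM on HFD and 35.3 to 69.9 CPM on chow. These 7 of 34 stood against 33.1% of all genes. With Cd79a, 18 of the 34 rose (10.3% of all genes did), among them the haematopoietic signalling genes Rac2 (0.39), Plcb2 (0.38), Pik3cd (0.30) and Was (0.27).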

How the data were processed

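Poly-A RNA of 16 animals was sequenced as read pairs of 150 bases. Alignment was to GRCm38.p6 with STAR 2.7.3a, per the submitters' processing notes. The deposited counts are whole numbers of read pairs per gene, made by the authors with featureCounts 2.0.3 on the Ensembl 102 annotation without using strand, per the file headers, and are not normalised. Exon lengths come from the same deposited count table. The deposited log2 fold changes (shrunken) and p-values of KO against WT on each diet are the authors' DESeq2 output, per the submitters' processing notes, with its version not given in the sources used here; they were used only where credited. Lanes had been merged for 12 of the libraries, and the other 4 came from a single lane, per the file headers.

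Symbols were taken from the deposited tables. The filterByExpr function of edgeR 4.0.16 (R 4.3.3) kept 16549 of 55487 genes. After TMM scaling, all 16 libraries entered a robust quasi-likelihood fit with a mean for each of the 4 groups, with Benjamini-Hochberg adjustment over all tested genes and a threshold of 0.05. A further fit added log2 Cd79a CPM (prior count 2) as a covariate, which also gave the slopes on Cd79a. A self-test recovered known changes in simulated counts, and its recovery rates are not reported here. The simulation drew each gene independently and held no lymph node signal shared between genes, so it does not cover that feature of these data. Each library was a separate animal, and no pair of libraries agreed within sampling noise (lowest chi-square per gene 9.82). Promoters were matched by symbol to RefSeq, and windows of 150 bases were compared with GENCODE M21 transcripts.

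Members were chosen for naming if called with a mean of at least 1 CPM in a group (the 15 smallest adjusted p) or highest in their role class. For some of them every library is given, and for others a range, a median, a slope or counts. Ccl2, Ccl7, Ccl9, Ccl12, Ccl21a, Ccl25, Ccl27a, Cxcl10, Cxcr4 and Ackr2 were added after their values were seen. Members and lists were chosen with earlier results of these data known. Another 9 genes whose symbols match the rule, with 0 to 9 counts each, are outside the deposited tables and were not analysed here. The values of 1 tested member are not reported here and are not drawn. Replicate numbers are shared between groups. Of 24 same-numbered pairs, 9 had a correlation of deviations over 0.1 (range −0.69 to 0.55), so numbers were not taken to pair animals. Alternatives were RLE and upper-quartile factors, DESeq2 1.42.0, limma-voom (limma 3.58.1), other filters, covariates, a replicate block, subsets of libraries, a threshold of 0.10 and leaving out each library.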

Additional observations from a re-analysis of the deposited data

Results flagged for a closer look

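In 27 of 152 groups of 4 libraries (38 members), 1 library lay far from the other 3, with a gap to its nearest neighbour above the 95% critical value of Dixon's test. Chance flags about 1 in 20 groups when the groups are independent and chosen without regard to their values. These members were chosen partly by their calls or after their values were seen, and they share libraries. The share flagged can therefore not be set against that rate.

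Most were libraries with a lymph node signal on HFD. KO HFD replicate 1 was high in Ccl19 (2.55 CPM), Ccl19-ps2 (0.708), Ccl21a (27.8), Cxcl13 (27.3), Ccl22 (16.4), Ccl5 (19.3), Ccr4 (1.20), Ccr6 (11), Ccr7 (20.5), Ccr9 (2.34), Cxcr2 (5.59), Cxcr3 (4.96), Cxcr5 (22.4) and Cxcr6 (7.51). WT HFD replicate 2 was high in Ccl19 (1.60 CPM), Ccl19-ps2 (1.02), Ccl21a (11.2), Ccr6 (6.83), Ccr7 (10.7), Cxcr2 (4.34), Cxcr5 (18.6) and Ccl12 (5.94). Cd79a was at 84.5 CPM in the first of these libraries and 79.8 CPM in the second.

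The other flagged values were on WT chow. Replicate 3 held 22.5 CPM of Ccl2, 31.9 CPM of Ccl7 and 7.45 CPM of Cxcl1. Replicate 2 held 11.7 CPM of Ackr2 and 0.869 CPM of Ccr3.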

How the results depend on the processing

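Each member called with all libraries kept the sign of its log2 fold change under the alternatives run. Over both genotypes the diet called 7 members. DESeq2 called 12 (30.2% of all genes), a threshold of 0.10 called 14 (42.1%), the libraries merged over lanes 4 (23.9%), and leaving out 1 library 6 to 16, with 16 without KO HFD replicate 1 (35.9%) and 11 without KO chow replicate 1 (31.8%) or WT chow replicate 2 (32.7%). In KO (1 member) DESeq2 called 2 (15.8%), limma-voom 3 (20.6%), a threshold of 0.10 called 3 (20.9%), merged libraries 2 (10.2%) and only the 8 libraries compared 3 (9.58%); leaving out a library gave 0 to 2, with 0 without KO chow replicate 3 or KO HFD replicate 2. In WT (2 members) a threshold of 0.10 called 4 (20.3%), merged libraries 0 (1.31%) and leaving out a library 0 to 7, with 7 when WT chow replicate 2 was omitted, 4 when replicate 3 of that group was, and 0 for WT chow replicate 4 or WT HFD replicate 3. The cause of these moves was not tested. In the 10 libraries without a lymph node signal 8 members were called (21.6% of all genes), of which 3 are among the main 7. In KO 1 member (Ackr3, higher) was called there in place of Cxcl9 (4.67% of all genes). In WT 2 higher (Ccl6 and Ccl9) and 1 lower (Ccl12) were called in place of Ccl27a and Ccr10 (3.8% of all genes). With all libraries the shares of all genes were 12.5% in KO and 11.8% in WT. The part of the smaller number of libraries in the lost calls was not tested. Over both genotypes Ccl2 (1.16, edgeR adjusted p = 0.126), Ccl27a (adjusted p = 0.0669), Cxcl9 and Cxcl12 were lost, and Ccl6, Ackr2, Ackr3, Ccr1 and Ccl12 were called. Over both genotypes Ccr10 kept its call under every alternative, and Ccl9 lost it with no filter (edgeR adjusted p = 0.0597). The slope on Cd79a called 16 to 21 members, among them 16 in the libraries merged over lanes (9.32% of all genes) and 20 by limma-voom (18.7%). Upper-quartile factors moved the median of all genes to −0.10 over both genotypes and gave 2309 of 5607 calls higher in place of 2827 of 5471, with the same 2 higher and 5 lower members. With the replicate number as a block, members called were 6 over both genotypes, 1 in KO, 1 in WT and 0 for genotype. Same-numbered libraries were closest to each other for 3 of 16 libraries only, and mean correlations were −0.08 for same and 0.03 for different numbers. Members under 1 CPM rest on fewer than 17 counts a library.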

Other observations

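Genes that act beside the chemokine system but carry other symbols were listed as 11 chemokine-like ligands and binding proteins, and 2 rose on HFD over both genotypes. Ccrl2, which holds the attractant chemerin at the cell surface without signalling, was at 4.53 to 6.86 CPM on HFD and 1.74 to 4.50 CPM on chow (log2 fold change 0.83, SE 0.15, edgeR adjusted p = 0.00125). Sdc1, a proteoglycan core protein that can present chemokines, rose by 0.56 (SE 0.17, edgeR adjusted p = 0.0220). Rarres2, which encodes chemerin (0.24), its receptor gene Cmklr1 (−0.08) and Mif, a ligand of Cxcr4 (−0.21), were not called. These 2 of 11 stood against 33.1% of all genes. With Cd79a, Cd74, the receptor of Mif, rose (slope 0.18, SE 0.03), as did Gpr182, an atypical receptor of endothelium (0.10, SE 0.03), and the other 9 were not called.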
